A study of Homo sapiens with 6 samples.

Results

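The genes described here are the ID genes and the components of bone morphogenetic protein (BMP) signalling that act on either side of them, in pancreatic carcinoma cells with and without triptolide. They were taken as the rows of the count table whose Ensembl identifier maps to 1 of 10 symbols: ID1, ID2, ID3, ID4, SMAD1, SMAD5, SMAD6, SMAD9, BMPR1A and BMPR2. Of these 10 genes 9 had a row among the 35716 genes of the table, and all 9 passed the filter on low counts. ID4 was not analysed here. The cells were MIA PaCa-2, an established line from a human pancreatic carcinoma, with a wild-type genotype in the labels. One group of 3 libraries came from cells in DMEM with serum and no added drug for 24 h. The other group of 3 came from cells given triptolide at 10 nM for 24 h, a plant diterpenoid that binds the XPB subunit of TFIIH and blocks transcription. The labels do not say whether replicates were grown as separate cultures, so a p-value here measures library-to-library spread that may be technical.

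BMP ligands bind a complex of type II receptors such as BMPR2 and type I receptors such as BMPR1A, which phosphorylates SMAD1, SMAD5 and SMAD9. These SMADs join SMAD4, enter the nucleus and switch on target genes, of which the ID genes are the best known. ID proteins carry a helix-loop-helix domain but no DNA-binding region, and they hold E proteins such as TCF3 away from DNA. SMAD6 is itself induced by the pathway and inhibits it, which closes a feedback loop.

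Of the 9 genes, ID2 rose, ID3 fell and 7 were not called. ID2 rose 1.79-fold and ID3 fell by 0.97 on the log2 scale, while ID1 lay between them with no call. The receptors, SMAD1, SMAD5, SMAD9 and SMAD6 were not called. A gene was called at an adjusted p under 0.05 in edgeR's quasi-likelihood test with Benjamini-Hochberg adjustment over all 15202 genes tested. At that threshold 10.0% of all genes tested were higher and 5.82% lower, so that 15.9% were called in either direction. The 2 calls among 9 genes are to be read against that share. The median log2 fold change was -0.26 over the 9 genes and -0.004 over all genes tested. Values below are in CPM, read counts scaled to a common library size after TMM scaling, and "untreated" libraries are those without triptolide.

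The stretch of DNA just upstream of the transcription start is shown for the 3 measured ID genes, because ID2 was called higher, ID3 lower and ID1 not at all. Each line gives the 150 bases before the RefSeq start on GRCh38.p14, 5′ to 3′ on the gene's strand: ID1 at chr20:31605139-31605288 (plus strand), ID2 at chr2:8681906-8682055 (plus strand) and ID3 at chr1:23559502-23559651 (minus strand). Capitals mark matches on either strand to 3 short promoter motifs: the TATA box core TATAA, the element CCAAT, and the GC box in the form GGGCGG.
ID1: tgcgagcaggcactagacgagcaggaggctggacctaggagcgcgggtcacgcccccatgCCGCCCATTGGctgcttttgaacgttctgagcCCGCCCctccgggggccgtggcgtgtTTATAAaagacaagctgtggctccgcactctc
ID2: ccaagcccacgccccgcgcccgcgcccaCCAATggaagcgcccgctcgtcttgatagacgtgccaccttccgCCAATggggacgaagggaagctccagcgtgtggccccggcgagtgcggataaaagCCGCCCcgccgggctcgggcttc
ID3: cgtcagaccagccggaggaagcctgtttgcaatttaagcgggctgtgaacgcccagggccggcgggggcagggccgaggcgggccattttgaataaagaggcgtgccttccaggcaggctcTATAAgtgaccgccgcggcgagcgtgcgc
Upstream of ID1 TATAA matched on both strands, overlapping, with the plus-strand match starting 31 bases before the start site. For ID3 a TATAA began 29 bases before it, and for ID2 these letters were not found in the 250 bases searched. CCAAT matched once for ID1 and at 2 places in the printed bases of ID2, and was not found for ID3. The GC box was found for ID1 and ID2 and not for ID3. Another motif, GGCGCC, the core of a GC-rich element that SMAD1 and SMAD5 can bind, were searched too and were not found in the 250 bases before any of the 3 starts. Of 35116 such windows of 250 bases in the RefSeq table, 18.9% held the TATA box core, 32.0% the CCAAT element, 42.6% the GC box and 16.4% the SMAD-binding letters. These matches describe letters only.

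Depth ranged from 16302961 to 23262713 counts per library. Triptolide replicate 1 stood apart by base composition: the fifth of tested genes with the lowest GC content had a median log2 deviation of -0.42 from their mean over all libraries in it, while the other 5 libraries lay between 0.004 and 0.17. For the fifth with the highest GC content the median was 0.35 in it, and the other 5 libraries lay between -0.14 and 0.08. Markers of the line were present, with VIM at 2260 ± 537 CPM untreated and 1358 ± 335 CPM with triptolide (SD, n = 3) and KRT8 at 1894 ± 341 and 1587 ± 256 CPM, whereas EPCAM had 4 and 3 counts per group in all. Of 6 tested markers of the line 3 were lower with triptolide (KRT18, VIM and CLDN1) and 0 higher, and the 8 listed summed to 4458 to 6593 CPM untreated and 3283 to 3991 CPM with triptolide. With ribosomal protein scaling 0 of the 6 were lower, and 1 without triptolide replicate 3. Of 11 tested trophoblast markers 11 were higher with triptolide, and the 12 listed markers summed to between 11.6 and 14.2 CPM untreated and between 546 and 915 CPM with triptolide. The most abundant were CSH1 (4.92 ± 0.13 and 430 ± 175 CPM) and CSH2 (2.22 ± 0.50 and 157 ± 32.5 CPM), while GCM1, HSD3B1 and PAGE4 had no counts in the untreated libraries. HSD3B1, PAGE4 and others, such as ERVW-1 with 1 count untreated in all, were tested only through the triptolide libraries. For them higher was the only likely call, so the 11 are not a free count. Over all genes tested 10.0% were higher. Of 5 tested blood markers 4 were higher, and the 12 listed summed to 3.16 to 4.15 CPM untreated and 12.8 to 25.4 CPM with triptolide, with HBB at 0.91 ± 0.64 and 5.49 ± 2.15 CPM and CD14 at 1.81 ± 0.40 and 3.52 ± 1.32 CPM. Blood markers such as HBA1 and HBA2, with 10 and 8 counts untreated in all, were also tested only through the triptolide libraries. HBG1, HBG2 and CD68 had no counts untreated, and LYZ and the fibroblast marker FAP none with triptolide. Of 9 tested fibroblast markers 4 were lower, and the 12 listed summed to 421 to 504 and 317 to 432 CPM, led by COL1A2 (323 ± 30.8 and 329 ± 54.5 CPM) and COL3A1 (53.1 ± 3.34 and 37.3 ± 4.69 CPM). Of 7 tested endothelial markers 2 were higher and 1 lower, and their 12 summed to 126 to 173 and 124 to 209 CPM, led by EGFL7 (101 ± 27.2 and 123 ± 38.8 CPM) and CDH5 (23.6 ± 2.54 and 15.9 ± 2.15 CPM). The higher calls were ESAM and VWF. VWF, with 4 counts untreated and 52 with triptolide in all, was tested only through the triptolide libraries. The lower call was CDH5 (edgeR adjusted p = 0.0471), and it was lost with library totals, ribosomal protein scaling, no filter, a floor of 5 CPM on the mean, a block for the replicate number, and without untreated replicate 1 or 2 or triptolide replicate 2 or 3. In bulk RNA, more or fewer cells of a type and more or less RNA per cell cannot be told apart. The counts called in each marker list are to be read against 10.0% higher and 5.82% lower among all genes tested. The part of these markers in the results below was not tested.

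ID2 (ENSG00000115738), an ID protein known to block differentiation in many lineages, rose. It stood at 20.9, 21.0 and 23.0 CPM in untreated replicates 1, 2 and 3 and at 42.9, 38.6 and 34.6 CPM in triptolide replicates 1, 2 and 3. All 3 triptolide libraries lay above all 3 untreated ones. The log2 fold change was 0.84 with a standard error of 0.16 and a 95% interval from 0.48 to 1.20 (edgeR adjusted p = 0.00549). ID2 was highest in triptolide replicate 1, the library in which the trophoblast markers also had their highest sum. That sum was mostly CSH1 (632, 322 and 336 CPM in triptolide replicates 1, 2 and 3). The markers did not all peak there, and PAGE4 was lowest in replicate 1 (1.01, 1.36 and 1.80 CPM). Without triptolide replicate 1 the log2 fold change of ID2 was 0.77 (edgeR adjusted p = 0.00661). The antisense gene ID2-AS1 shares exon positions with ID2 in GENCODE 29 and totalled 19 counts untreated and 42 with triptolide, next to 1170 and 2429 counts of ID2. The strand setting of the counting is not given, so reads of both cannot be told apart.

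ID3 (ENSG00000117318), a close relative of ID1 and a rapid target of BMP and serum signals, fell. It stood at 285, 306 and 388 CPM in untreated replicates 1, 2 and 3 and at 183, 160 and 157 CPM in triptolide replicates 1, 2 and 3. The groups were well apart, with the lowest untreated library above the highest triptolide library. The log2 fold change was -0.97 with a standard error of 0.17 and an interval from -1.34 to -0.60 (edgeR adjusted p = 0.00291). Its spread was wider untreated (SD 54.3 CPM, n = 3) than with triptolide (SD 14.2 CPM, n = 3), through the high untreated replicate 3. Without that replicate the log2 fold change was -0.84 (edgeR adjusted p = 0.00763).

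ID1 (ENSG00000125968), the ID gene most often used as a readout of BMP signalling, was not called. It stood at 147, 171 and 219 CPM in untreated replicates 1, 2 and 3 and at 173, 135 and 133 CPM in triptolide replicates 1, 2 and 3. The groups overlapped, since triptolide replicate 1 lay above untreated replicates 1 and 2. ID1 has 58.6% GC, and that library ran high in GC-rich genes. An offset for GC content per library gave a log2 fold change of -0.36 (edgeR adjusted p = 0.0632). Leaving out triptolide replicate 1 gave -0.40 (edgeR adjusted p = 0.143). In the main fit over all 6 libraries the log2 fold change was -0.28 with an interval from -0.69 to 0.13 (edgeR adjusted p = 0.337), so that neither a fall nor a small rise could be told from no change.

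**Figure D1:**
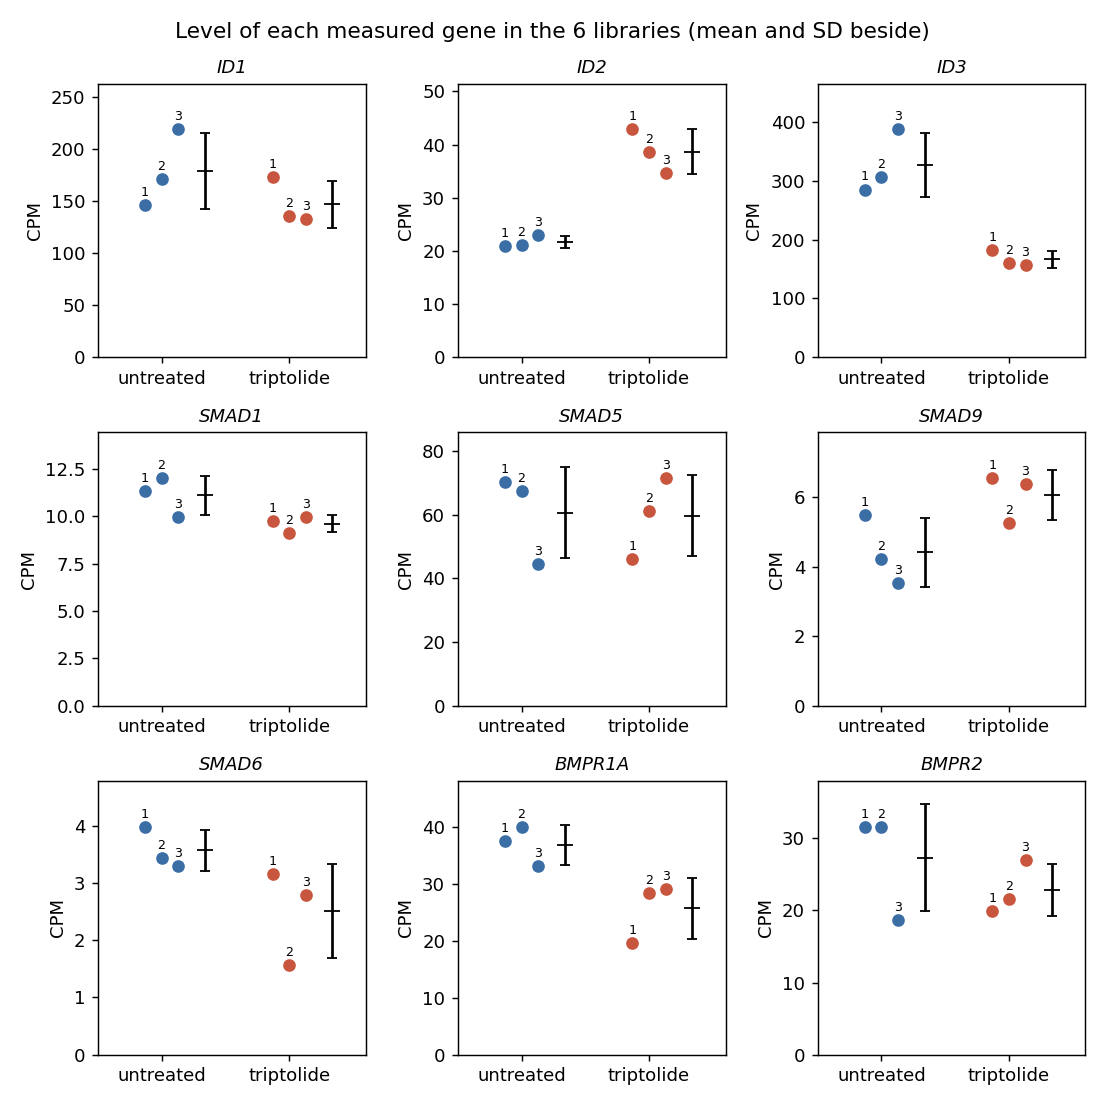
CPM of the 9 measured genes in each of the 6 libraries, 1 panel per gene with an axis from 0, points numbered by replicate, and the mean with its SD (n = 3) beside each group. The groups are apart for ID2, ID3, SMAD6 and BMPR1A and overlap for the other 5 genes.

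The balance between the ID genes can be read within each library, where the scaling between libraries plays no part. These ratios were chosen after the values had been seen and are given with no test. ID3 made up 63.0%, 61.4% and 61.5% of the counts of ID1, ID2 and ID3 together in untreated replicates 1, 2 and 3, and 45.8%, 47.8% and 48.4% in triptolide replicates 1, 2 and 3. ID2 made up 4.16% ± 0.49 of them untreated and 11.0% ± 0.50 with triptolide (SD, n = 3). ID1 took 33.9% ± 1.28 and 41.6% ± 1.53. For each count of ID2 there were 13.6, 14.6 and 16.8 counts of ID3 in the untreated libraries and 4.26, 4.14 and 4.54 in the triptolide libraries. No untreated library came near a triptolide library in any of these shares. The 3 genes together summed to 527 ± 92.2 CPM untreated and 352 ± 40.5 CPM with triptolide (SD, n = 3).

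**Figure D2:**
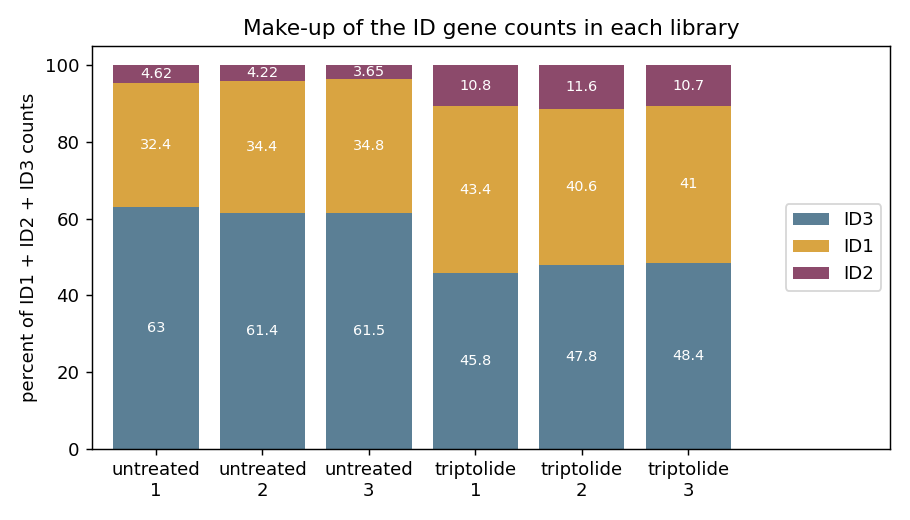
Stacked bars, from 0 to 100%, of the share of ID1, ID2 and ID3 in their summed counts, 1 bar per library. The ID3 share is between 61.4% and 63.0% in the untreated bars and between 45.8% and 48.4% in the triptolide bars, and the ID2 share is larger in each triptolide bar.

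Levels of different genes were compared per kilobase of exon, using the union of exons in GENCODE 29 as length. In untreated cells the order was ID3 (182 CPM per kb), ID1 (145), ID2 (9.82), SMAD5 (6.71), BMPR1A (3.23), BMPR2 (2.29), SMAD1 (1.83), SMAD9 (0.77) and SMAD6 (0.42), all in CPM per kb. The 2 highest, ID3 and ID1, overlapped across libraries, with ranges of 159 to 216 and 119 to 178 CPM per kb, and BMPR2 (1.57 to 2.65 CPM per kb) overlapped SMAD1 (1.65 to 1.98 CPM per kb). With triptolide ID1 stood at 119 and ID3 at 92.7 CPM per kb. On this scale the ratio of ID3 to ID1 was 1.26 ± 0.07 untreated and 0.78 ± 0.05 with triptolide (SD, n = 3). The change of order rests on the length given to ID3: with the longest transcript as length, a choice added after seeing the data, the ratios were 1.81 and 1.12 and ID3 stayed the higher of the pair. The place of SMAD1 also depended on the length: per kb of longest transcript it stood at 3.37 CPM per kb untreated, above BMPR1A (3.28) and BMPR2 (2.38).

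**Figure D3:**
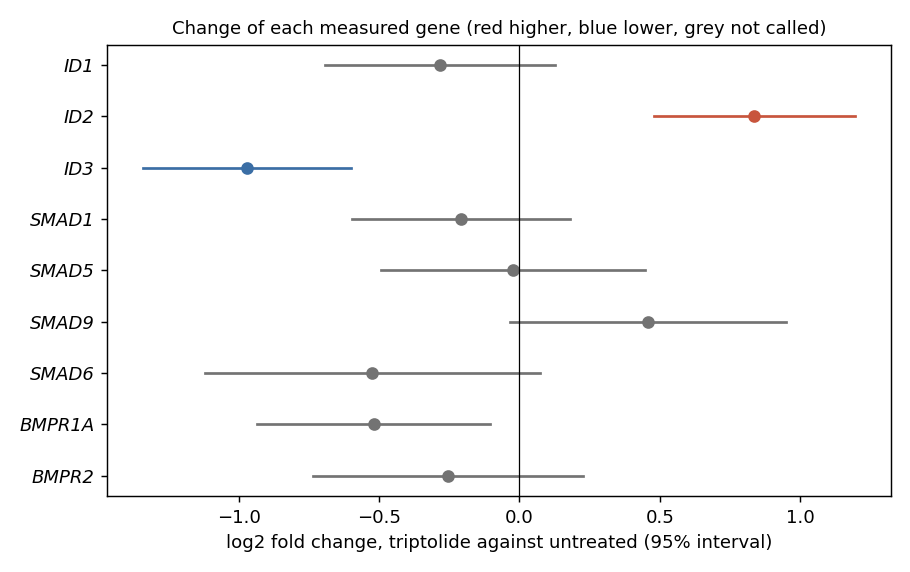
Log2 fold change of each of the 9 genes, triptolide against untreated, with 95% intervals as lines and the edgeR call as colour. ID2 (0.84) and ID3 (-0.97) are coloured as called, and BMPR1A (-0.52) is grey although its interval, which is not adjusted for the number of genes, ends below 0.

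The receptors were not called. BMPR1A (ENSG00000107779), a type I receptor for BMP2 and BMP4, stood at 37.6, 40.0 and 33.1 CPM in untreated replicates 1, 2 and 3 and at 19.5, 28.4 and 29.2 CPM in triptolide replicates 1, 2 and 3. The triptolide libraries lay below the untreated ones, with a log2 fold change of -0.52 and an interval from -0.93 to -0.10 (edgeR adjusted p = 0.0854). An offset for GC content per library gave -0.36 and an edgeR adjusted p of 0.0332, past the threshold. BMPR1A has 40.6% GC, and its lowest value was in triptolide replicate 1, the library low in GC-poor genes. Without that library the log2 fold change was -0.34 (edgeR adjusted p = 0.136).

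BMPR2 (ENSG00000204217), the type II receptor whose germline mutations underlie heritable pulmonary hypertension, stood at 31.6, 31.5 and 18.7 CPM in untreated replicates 1, 2 and 3 and at 19.9, 21.6 and 26.9 CPM in triptolide replicates 1, 2 and 3. The groups overlapped through the low untreated replicate 3. The log2 fold change was -0.26 with an interval from -0.74 to 0.23 (edgeR adjusted p = 0.469).

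Among the SMADs that the receptors phosphorylate, none of 3 was called. At an unadjusted p under 0.05 edgeR also gave 0 of 3, and DESeq2 and limma-voom called 0. SMAD5 (ENSG00000113658) took most of their counts, 79.3% ± 2.28 of the sum of SMAD1, SMAD5 and SMAD9 untreated and 78.8% ± 4.20 with triptolide (SD, n = 3). It stood at 70.2, 67.4 and 44.4 CPM in untreated replicates 1, 2 and 3 and at 46.2, 61.2 and 71.5 CPM in triptolide replicates 1, 2 and 3. The low libraries were untreated replicate 3 and triptolide replicate 1, so the groups covered nearly the same range. The log2 fold change was -0.02 with an interval from -0.49 to 0.45 (edgeR adjusted p = 0.955), and its sign turned under several settings.

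SMAD1 (ENSG00000170365) had little spread, with 11.3, 12.0 and 9.97 CPM in untreated replicates 1, 2 and 3 and 9.76, 9.10 and 9.98 CPM in triptolide replicates 1, 2 and 3. The groups touched, and the log2 fold change was -0.21 with an interval from -0.60 to 0.18 (edgeR adjusted p = 0.465). SMAD9 (ENSG00000120693), the least abundant of the 3, stood at 5.50, 4.21 and 3.52 CPM in untreated replicates 1, 2 and 3 and at 6.55, 5.25 and 6.39 CPM in triptolide replicates 1, 2 and 3. Untreated replicate 1 lay above triptolide replicate 2, and the log2 fold change was 0.46 with an interval from -0.03 to 0.95 (edgeR adjusted p = 0.193).

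SMAD6 (ENSG00000137834), the inhibitory SMAD of the BMP branch, stood at 3.98, 3.44 and 3.30 CPM in untreated replicates 1, 2 and 3 and at 3.15, 1.58 and 2.80 CPM in triptolide replicates 1, 2 and 3. The triptolide libraries all lay below the untreated ones. At 193 counts untreated and 156 with triptolide in all, the log2 fold change of -0.52 had an interval from -1.12 to 0.07 (edgeR adjusted p = 0.218). Across the 9 genes the groups did not overlap in 4, namely ID2, ID3, SMAD6 and BMPR1A, where 36.7% of all genes tested had groups that did not overlap.

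The genes around these members were taken from 6 lists of BMP pathway genes and partners of ID proteins, with 72 genes in the table and 48 tested. Of the 48, 6 rose, 4 fell and 38 were not called, which is near the 10.0% higher and 5.82% lower among all genes tested. Scaling on library totals alone gave 9 higher and 3 lower and scaling on ribosomal protein genes 5 and 2. The median log2 fold change of the 48 was 0.06.

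**Figure D4:**
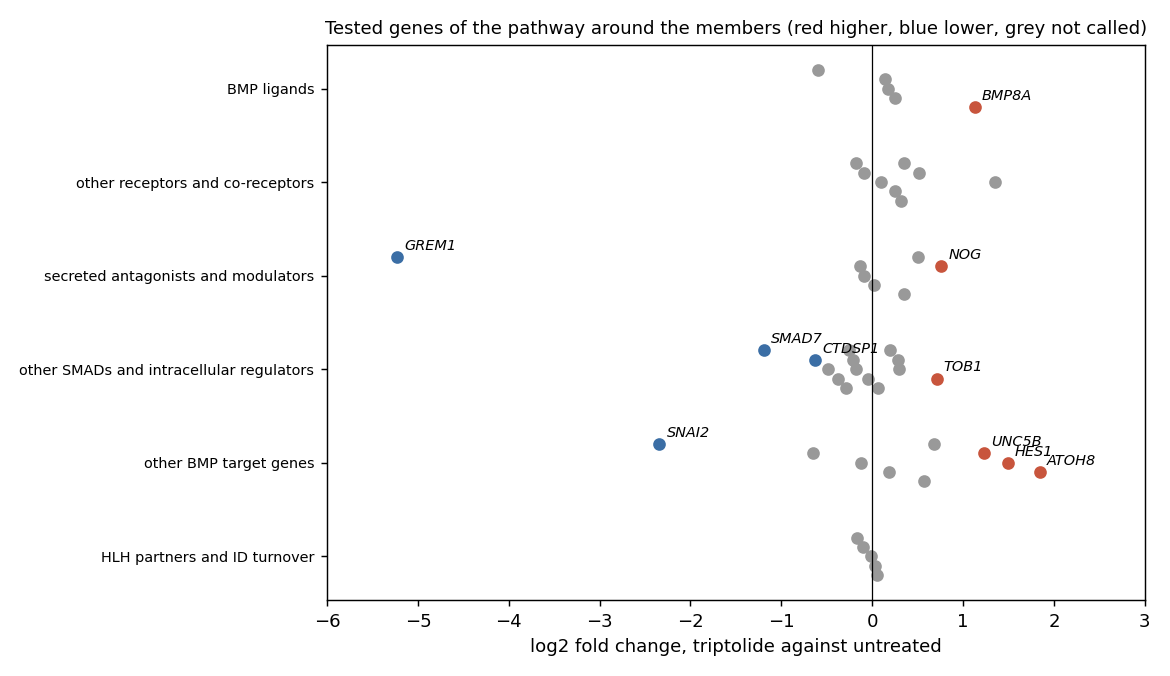
Log2 fold change of the 48 tested genes in 6 lists, triptolide against untreated, 1 point per gene, with the called genes named. The called genes lie on both sides of 0, from GREM1 at -5.23 to ATOH8 at 1.84, and none of the receptors or helix-loop-helix partners is named.

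Of the 13 BMP ligand genes listed, 5 were tested and 1 rose, where 10.0% of all genes tested were higher. BMP8A, a ligand gene, rose from 1.33 ± 0.24 to 2.93 ± 0.45 CPM (SD, n = 3, edgeR adjusted p = 0.0131, and 0.0747 without untreated replicate 2). Reads may be divided between BMP8A and its near copy BMP8B. BMP8A also shares exon positions with PPIEL on the opposite strand, which had 62 counts untreated and 212 with triptolide. BMP7, named here after the values were seen because it had the most counts of the ligands, stood at 31.7 ± 0.81 and 35.9 ± 6.40 CPM (SD, n = 3, edgeR adjusted p = 0.531). Group totals were 3 (untreated) and 2 (triptolide) counts for BMP2 and 6 and 0 for BMP4, too few to compare. No gene of 8 tested receptors and co-receptors was called in edgeR, with 1 higher at an unadjusted p under 0.05 and 0 called by DESeq2 or limma-voom. ACVRL1, named after its values were seen, was called with library totals, with no filter, with the replicate block and without triptolide replicate 3. With 18 counts untreated and 54 with triptolide in all, ACVRL1 passed the filter on low counts only through the triptolide libraries. The filter thus partly set its direction. Endoglin (ENG), a co-receptor, stood at 81.3 ± 6.78 and 76.7 ± 17.6 CPM and RGMB, another co-receptor, at 35.8 ± 1.93 and 31.6 ± 3.42 CPM (SD, n = 3).

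Of 7 tested secreted antagonists and modulators 1 was called higher and 1 lower, to be read against 10.0% and 5.82% of all genes tested. NOG (ENSG00000183691), which encodes noggin and binds BMP ligands outside the cell, rose, and GREM1 (ENSG00000166923), which encodes gremlin and does the same, fell. The other 5 of the 7 tested were not called. NOG stood at 47.3, 45.6 and 51.5 CPM in untreated replicates 1, 2 and 3 and at 106, 69.7 and 68.8 CPM in triptolide replicates 1, 2 and 3. Every triptolide library was higher, and replicate 1 most of all. The log2 fold change was 0.76 with a standard error of 0.19 (edgeR adjusted p = 0.0203), and the adjusted p was 0.068 and 0.0936 without untreated replicates 1 and 2. Without triptolide replicate 1 the log2 fold change was 0.54, and with an offset for GC content per library it was 0.65. NOG has 59.5% GC, and triptolide replicate 1 ran high in the fifth of tested genes with the highest GC content.

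GREM1 stood at 5.78, 10.4 and 3.97 CPM in untreated replicates 1, 2 and 3 and at 0.19, 0.13 and 0.20 CPM in triptolide replicates 1, 2 and 3, or 362 and 11 counts in all. It was nearly lost from the triptolide libraries, a 37.5-fold fall (edgeR adjusted p = 4.2e-05). GREM1 passed the filter on low counts only through the untreated libraries. The fibroblast markers POSTN and COL1A1, named beside it after the values were seen, had 7.46, 12.5 and 4.57 CPM and 49.0, 73.1 and 61.1 CPM in untreated replicates 1, 2 and 3. With triptolide POSTN had 3 counts in all, and COL1A1 stood at 3.40, 2.45 and 2.64 CPM in replicates 1, 2 and 3. Like GREM1, POSTN passed the filter only through the untreated libraries. COL1A2, the most abundant gene of that marker list, overlapped between the groups and was not called (edgeR adjusted p = 0.936). Of the 9 tested genes of that list 5 were not called.

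**Figure D5:**
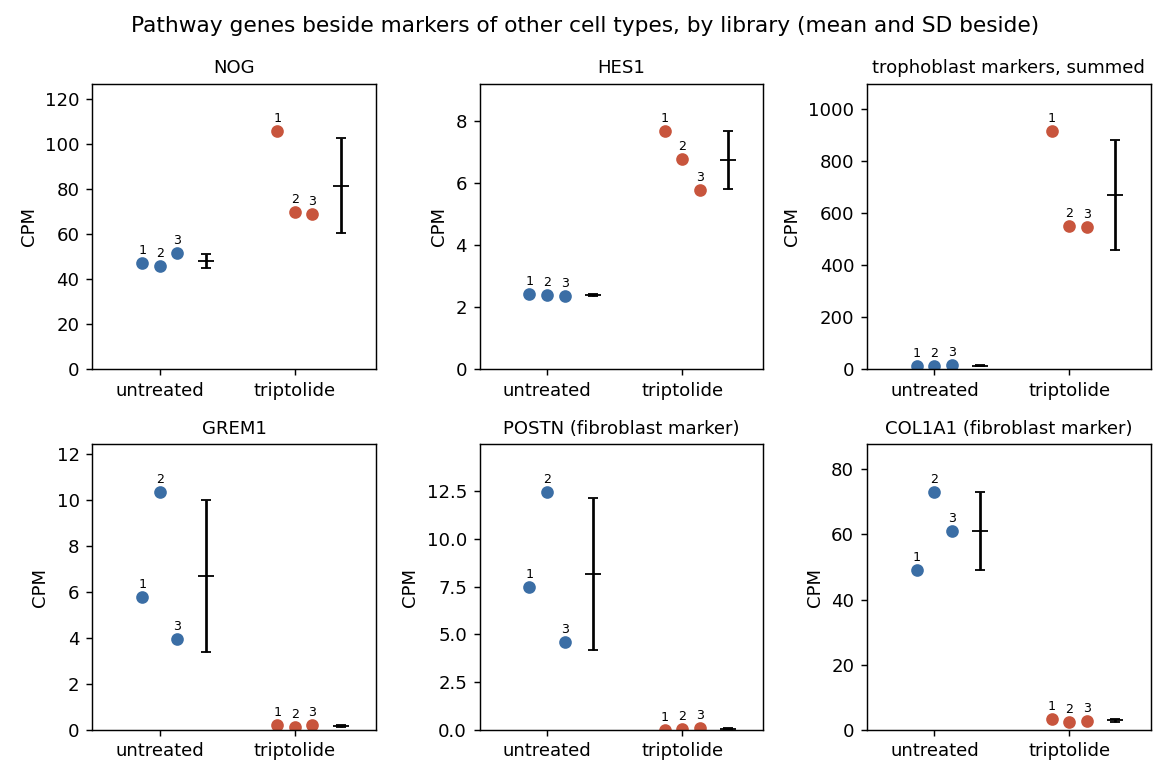
CPM of NOG, HES1 and GREM1, of the summed trophoblast markers and of the fibroblast markers POSTN and COL1A1 in each library, with axes from 0, points numbered by replicate and the mean with its SD (n = 3) beside each group. NOG and the trophoblast sum, which is mostly CSH1 there, are both highest in triptolide replicate 1, though not all trophoblast markers peak there. That library ran high in GC-rich genes, and the part of base composition in either peak was not tested. GREM1, POSTN and COL1A1 are all highest in untreated replicate 2. POSTN and COL1A1 were picked after the values were seen, and 5 of the 9 tested fibroblast markers were not called.

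Of 14 tested SMADs and intracellular regulators 1 rose, 2 fell and 11 were not called. Among all genes tested 10.0% were higher and 5.82% lower. TOB1, an antiproliferative protein that can repress SMAD activity, rose from 35.4 ± 4.35 to 57.9 ± 4.02 CPM (SD, n = 3, edgeR adjusted p = 0.0131). It was not called with ribosomal protein scaling (0.083) or without untreated replicate 2 (0.0525), and the opposite-strand gene TOB1-AS1 (49 counts untreated and 83 with triptolide) shares exon positions with it. CTDSP1, a phosphatase that can remove phosphate from SMAD1, fell from 64.4 ± 6.46 to 41.6 ± 5.78 CPM (SD, n = 3, edgeR adjusted p = 0.0268). This call was lost with ribosomal protein scaling (0.314), a mean of at least 5 CPM (0.0623) and each untreated replicate or triptolide replicate 3 left out (0.0607 to 0.137). SMAD7, the other inhibitory SMAD, fell from 1.09 ± 0.16 to 0.48 ± 0.19 CPM, just past the threshold (SD, n = 3, edgeR adjusted p = 0.0489). Its adjusted p was 0.0946 in DESeq2, 0.0662 with library totals, 0.214 with ribosomal protein scaling and 0.0561 to 0.137 with each library left out in turn. SMAD4, the common partner SMAD, named here after the values were seen, stood at 44.8 ± 4.34 and 54.8 ± 4.26 CPM (SD, n = 3) and was not called (edgeR adjusted p = 0.248), except with the GC offset.

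Of 9 other tested BMP target genes 3 rose, 1 fell and 5 were not called. These counts are to be read against 10.0% higher and 5.82% lower among all genes tested. HES1 (ENSG00000114315), a transcriptional repressor that Notch also induces, stood at 2.41, 2.38 and 2.37 CPM in untreated replicates 1, 2 and 3 and at 7.68, 6.78 and 5.79 CPM in triptolide replicates 1, 2 and 3. The untreated libraries were nearly equal and the triptolide libraries all higher, with a log2 fold change of 1.49, a standard error of 0.22 and an edgeR adjusted p of 0.000854. ATOH8, a helix-loop-helix factor, rose from 11 to 47 counts in all (edgeR adjusted p = 0.0161, and 0.068 and 0.06 without untreated replicates 1 and 3). UNC5B, a netrin receptor, rose from 2.54 ± 0.49 to 6.01 ± 2.36 CPM (SD, n = 3, edgeR adjusted p = 0.0167, and 0.0593 without untreated replicate 3). SNAI2, a repressor known from epithelial-mesenchymal transition, fell from 0.82 ± 0.18 to 0.15 ± 0.08 CPM (SD, n = 3, edgeR adjusted p = 0.00531), or from 44 to 10 counts in all. ATOH8 and SNAI2 passed the filter on low counts only through the group where each was higher, so the filter partly set their directions. HES1 and UNC5B rose, as ID2 did, while ID3 fell.

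Among helix-loop-helix partners of the ID proteins and genes tied to ID turnover, 0 of 5 tested were called in edgeR, with 0 at an unadjusted p under 0.05 and 0 in DESeq2 or limma-voom. TCF3, the main E protein that ID proteins bind, stood at 330 ± 17.8 and 328 ± 78.7 CPM (SD, n = 3), with an interval of the log2 fold change from -0.41 to 0.39. USP1, an enzyme that removes ubiquitin from ID proteins, stood at 78.7 ± 10.2 and 69.8 ± 16.6 CPM (SD, n = 3).

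Likeness of pattern was measured as Pearson's r of log2 CPM over the 6 libraries among the other 37 genes of these lists with a mean of at least 5 CPM. These libraries share the 2 groups and differ in depth and base composition, so r is a description. ID3 was most like CTDSP1 (r = 0.97), then STUB1 (0.81) and ID1 (0.77). ID1 was most like STUB1 (r = 0.89), then NBL1 (0.85) and ENG (0.80).

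Every fold change here compares a gene with the rest of its library, and the total RNA content of a cell was not measured. Over all genes tested 63.3% of the calls were higher, and the share was 73.8% with library totals alone and 90.0% with ribosomal protein scaling. That last scaling took the median log2 fold change over all genes tested from -0.004 to 0.17. Under that scaling ID2 had a log2 fold change of 1.01 and ID3 of -0.77, and both passed (edgeR adjusted p = 0.0243 and 0.0367).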

How the data were processed

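Poly(A)-selected mRNA was sequenced in 6 libraries of MIA PaCa-2 cells, 3 per group, grouped by the labels' titles. The series' design text calls the triptolide group the control, and the titles were followed. The table deposited by the authors holds whole-number read counts per Ensembl gene, and the submitters' processing notes name HISAT2 and featureCounts. No version, build, annotation release or strand setting is given in the sources used here. Of 35716 identifiers 35710 were matched to symbols by ID. Genes passing filterByExpr (15202) were scaled by TMM and fitted with edgeR 4.0.16 in R 4.3.3 (glmQLFit, glmQLFTest), on a design holding group alone, and p-values were adjusted by Benjamini-Hochberg across the 15202 genes. Standard errors came from the fold change and its F statistic, and 95% intervals are per gene and not adjusted. Gene lengths and GC content came from GENCODE 29, with GC for 99.2% of tested genes, and upstream sequences from RefSeq on GRCh38.p14. The fit was tested on simulated data.

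Every member was named, along with called genes of each pathway list or else its 2 most abundant, the 2 most abundant of each marker list, and the 3 genes most like ID1 and ID3 in pattern. Members and lists were chosen with earlier results of these data known. Alternatives changed the scaling (RLE, library totals, 78 ribosomal protein genes), the filter (none, or a mean of 5 CPM or more), the test (DESeq2 1.42.0, voom in limma 3.58.1) or the design: a block for the replicate number, a GC offset per library and each library left out. Figures were drawn with matplotlib 3.10.9.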

Additional observations from a re-analysis of the deposited data

How the results depend on the processing

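ID2 stayed higher and ID3 lower, past the threshold, under all 9 alternative settings and with each of the 6 libraries left out. ID2 then ranged from 0.773 to 0.912 and ID3 from -1.07 to -0.839 on the log2 scale with a library left out. The members called lower numbered 2 with the GC offset, where BMPR1A passed at -0.365 (adjusted p = 0.0332). SMAD5, never called, turned to 0.0406 with library totals, 0.127 with ribosomal protein scaling, 0.0551 with a floor of 5 CPM on the mean and 0.213 with the GC offset, and ranged from -0.213 to 0.142 with a library left out. SMAD6 had no value with that floor.

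Of the other pathway genes, 6 were higher and 4 lower, against 2 and 0 with a floor of 5 CPM on the mean, which tests fewer genes, 5 and 2 with ribosomal protein scaling, and 3 to 7 and 2 to 4 with a library left out. Without untreated replicate 2, 3 were higher, and 2 were lower without any 1 untreated replicate or triptolide replicate 3. Over all genes 1527 were higher and 884 lower, against 584 and 336 with that floor, 1201 and 133 with ribosomal protein scaling and 2206 and 1617 with the GC offset. With a library left out the counts ran from 953 to 1580 and from 407 to 1034. They were 953 and 407 without untreated replicate 2, and 529 and 457 were lower without untreated replicate 1 and triptolide replicate 3. With the floor of 5 CPM 10290 genes were tested, against 15202 in the main fit. The cause of these differences was not tested.

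Replicate numbers are shared by the groups, and the deviations of same-numbered libraries had correlations of 0.0286, -0.0411 and -0.439. Pairs with unlike numbers ran from -0.277 to 0.312. With deviations taken within 3 libraries per group, these values cannot show whether same-numbered libraries shared a culture or batch. With the replicate block 1523 genes were higher and 856 lower, with 1 member higher and 1 lower. Of the other pathway genes 7 were then higher and 3 lower: ACVRL1 was added and CTDSP1 (adjusted p = 0.0512) was lost, as was the endothelial marker CDH5. Few counts limit SMAD6, SMAD7 and ATOH8.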
